A study of Mus musculus with 50 samples.

Results

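The on-off genes of this series are 25 genes, measured by 26 probe sets, whose signal in mouse dorsal root ganglion was low in some inbred strains and high in others. They were chosen by measured values on the scale log2 (intensity + 1), the scale of every level below: both arrays of at least 1 strain lay below 4.5, and both arrays of at least 1 other strain lay above 8. Probe sets with exactly 1 gene symbol and no _x_at or _s_at suffix could enter, and the 26 make up 0.0837% of these 31076. A strain with both arrays above 8 is called on, a strain with both arrays below 4.5 off, and any other strain between. Paired values in parentheses after a strain are its male and its female array. Because these values chose the genes, their on and off levels are a description without a test.

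The study profiled dorsal root ganglia of 25 inbred strains on 50 expression arrays, 1 per sex and strain. All mice, as labelled, were wildtype, naive and 2 months old, and each array carried RNA pooled from 3 mice of 1 sex. The 23 strains used were AKR/J, BALB/CByJ, 129S1/Sv1mJ, BTBT T+tf/J, SJL/J, c57BL/6J, NZW/LacJ, BUB/BnJ, CBA/J, KK/HIJ, C58/J, RIIIS/J, NZO/HILtJ, DBA/2J, C3H/HeJ, NOD/LtJ, C57BR/cdJ, FVB/NJ, P/J, MRL/MpJ, SWR/J, A/J and NON/LtJ, spelled as in the labels. The male and the female pool are the 2 replicates of a strain. The p-values for strain come from a fit that takes out the mean difference between the sexes. Their error is thus how the difference between the pools varied from strain to strain. The p-values for sex use the same error, and a sex difference in how the pools were handled would lie in the tested difference itself.

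SM/J and PL/J were left out by the rule. The array labelled male PL/J had Xist, the noncoding RNA of the inactive X chromosome, at 8.97, and the array labelled female SM/J had the Y chromosome gene Eif2s3y at 6.82. In the 23 other strains Xist reached 7.78 in a male array (BTBT T+tf/J) and Eif2s3y reached 3.46 in a female array. The male BTBT T+tf/J and the female P/J array also stood out in Gapdh control probes, whose signal at the 3' end exceeded that at the 5' end by 0.60 and 0.34, whereas the difference lay below 0 on all other arrays. All 26 probe sets still met the rule without the strains BTBT T+tf/J and P/J. Sensory neuron markers marked the tissue: 9 of 11 lay above 8 in each of the 46 arrays. Of 5 muscle, 5 liver and 4 central glia markers, none lay above 4.5 in every array. The highest arrays reached 10.83 for Acta1 of muscle and 10.12 for Alb of liver. Median arrays of the 5 muscle markers lay between 4.55 (Tnnt3) and 6.88 (Acta1), so muscle signal was not limited to single arrays. Those of the 5 liver markers lay between 2.08 (Serpina1c) and 3.89 (Ttr). Of the 4 blood, 2 fat and 3 skin markers, 1 each lay above 4.5 in every array: S100a8 (5.54 to 11.31), Fabp4 (5.16 to 10.11) and Krt10 (5.34 to 6.48).

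An inbred strain carries 1 fixed genome, so a gene that is active in some strains and silent in others gives a pattern of strains that both sexes share. A probe set reads a short stretch of a transcript. Less RNA, a transcript that lacks that stretch and a sequence difference under the probes all lower its signal, and the arrays alone do not tell them apart. The dorsal root ganglion holds the cell bodies of sensory neurons, the satellite glia around them and myelinating Schwann cells, and in such bulk tissue fewer cells of a type and less RNA per cell cannot be told apart.

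Across the 26 probe sets and 23 strains there were 598 combinations, of which 191 were on, 148 off and 259 between. In 1 of them 1 array lay below 4.5 and the other above 8, with Norad in P/J at 8.71 (male) and 3.28 (female). In others the pools also lay far apart, as with Map1b in SJL/J at 7.66 (male) and 2.71 (female). The mean of the on strains exceeded that of the off strains by 3.89 to 6.84 (median 5.18), and the SD between the pools of a strain had a median of 0.23 over the probe sets. All 26 were called for strain by limma's F test at an adjusted p under 0.05, against 23.6% of the 22130 probe sets tested, but the choice used the same strain values and nothing follows from this. Nearest inside the lower threshold were Ago2 and Gtpbp4, whose off strain reached 4.45, and Bmpr2 at 4.13, while Isoc1 at 4.58, Pam at 4.67 and Pttg1 at 4.70 fell just outside. Nearest inside the upper threshold were Lin7c and the Pdxdc1 probe set 1452705_at at 8.03 and Ago2 at 8.13, while Ceacam10 at 7.99, Amy1 at 7.94 and Reep3 at 7.90 fell just outside.

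**Figure D1:**
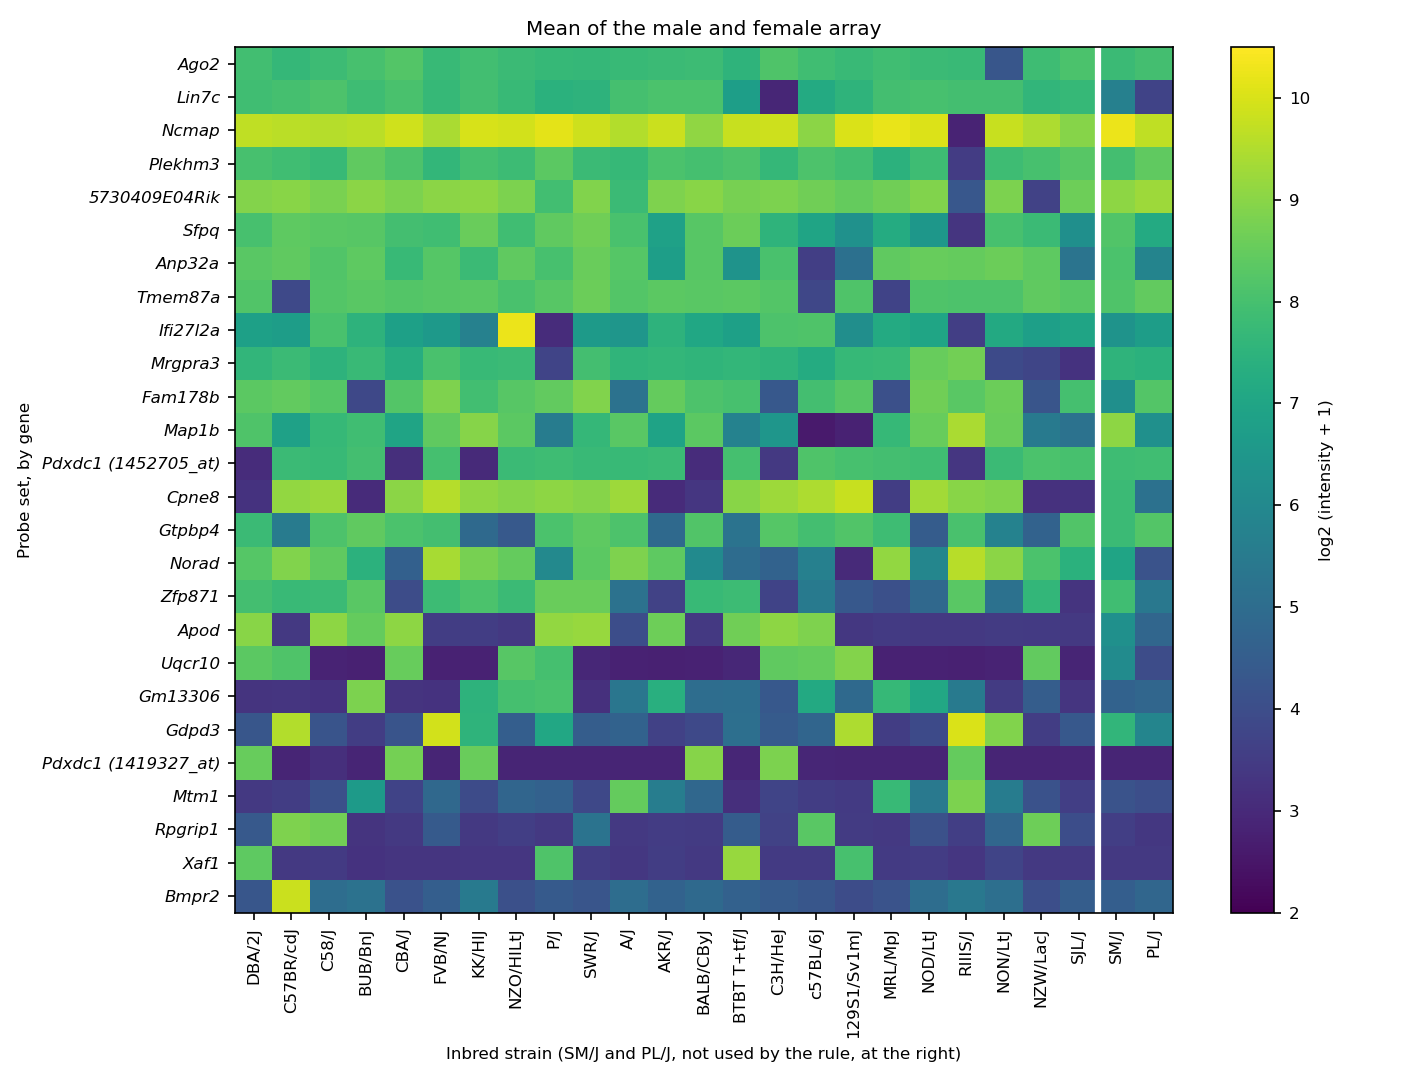
Strain means (colour, log2 of intensity + 1, mean of the male and female array) of the 26 probe sets (rows, ordered by the number of low strains) in 25 strains (columns, ordered by the number of low genes, with SM/J and PL/J at the right). Ncmap is dark in RIIIS/J alone among the 23 strains used, Bmpr2 is bright in C57BR/cdJ alone, and the rows of the 2 Pdxdc1 probe sets are each other's opposite.

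In all, 6 probe sets fell into nearly clean classes with at most 1 strain between. Ncmap, which encodes a protein of noncompact myelin in Schwann cells, had the widest difference, 6.84. It lay between 8.70 and 10.32 (median 9.72) in the 44 arrays of 22 on strains, against 3.08 (male) and 2.61 (female) in RIIIS/J, its sole off strain. Both RIIIS/J pools thus lay far under every other array.

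Cpne8, which encodes a copine, a protein that binds phospholipids in the presence of calcium, had 16 on and 7 off strains and none between. Its 32 arrays of on strains lay between 8.74 and 9.78 (median 9.15), against 3.00 to 3.90 (median 3.20) in the 14 arrays of BUB/BnJ, AKR/J, MRL/MpJ, NZW/LacJ, SJL/J, DBA/2J and BALB/CByJ. The on strains averaged 9.18 ± 0.24 and the off strains 3.24 ± 0.18 (SD over strains, n = 16 and 7), a difference of 5.94.

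Pdxdc1, a gene for a protein with a pyridoxal-dependent decarboxylase domain, is present with both of its members. Probe set 1419327_at was on in BALB/CByJ, CBA/J, KK/HIJ, RIIIS/J, DBA/2J and C3H/HeJ, with 8.40 to 8.99 (median 8.62) in their 12 arrays, against 2.84 to 3.45 (median 2.88) in the 34 arrays of the other 17 strains, all off. Probe set 1452705_at had its 6 off strains exactly there: its on strains 129S1/Sv1mJ, SJL/J and NZW/LacJ had 8.01 to 8.16 in 6 arrays and the 14 strains between had 7.54 to 8.5, against 2.81 to 3.88 (median 3.13) in the 12 off arrays. No strain was high or low for both.

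Uqcr10, a subunit of complex III of the mitochondrial respiratory chain, was on in 8 strains, off in 14 and between in P/J (8.40 male, 7.58 female). The 16 on arrays, from 129S1/Sv1mJ, c57BL/6J, NZW/LacJ, CBA/J, NZO/HILtJ, DBA/2J, C3H/HeJ and C57BR/cdJ, lay between 8.02 and 9.10 (median 8.43), against 2.72 to 3.13 (median 2.83) in the 28 off arrays. Apod, the gene of apolipoprotein D, a lipid carrier made by glia, was on in 10 strains, off in 12 and between in A/J. Its 20 on arrays, from AKR/J, BTBT T+tf/J, c57BL/6J, BUB/BnJ, CBA/J, C58/J, DBA/2J, C3H/HeJ, P/J and SWR/J, lay between 8.35 and 9.45 (median 8.93), against 3.20 to 3.83 (median 3.53) in the 24 off arrays. A/J, with 4.81 (male) and 3.22 (female), stood near the off strains. Tmem87a, which encodes a membrane protein of the Golgi, was on in 19 strains with 8.03 to 8.66 (median 8.29) in 38 arrays, against 3.57 to 3.94 (median 3.82) in the 6 arrays of c57BL/6J, C57BR/cdJ and MRL/MpJ, its off strains. NZO/HILtJ, at 7.85 and 8.30, missed the upper threshold in the male array alone, so Tmem87a also formed 2 separate classes.

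**Figure D2:**
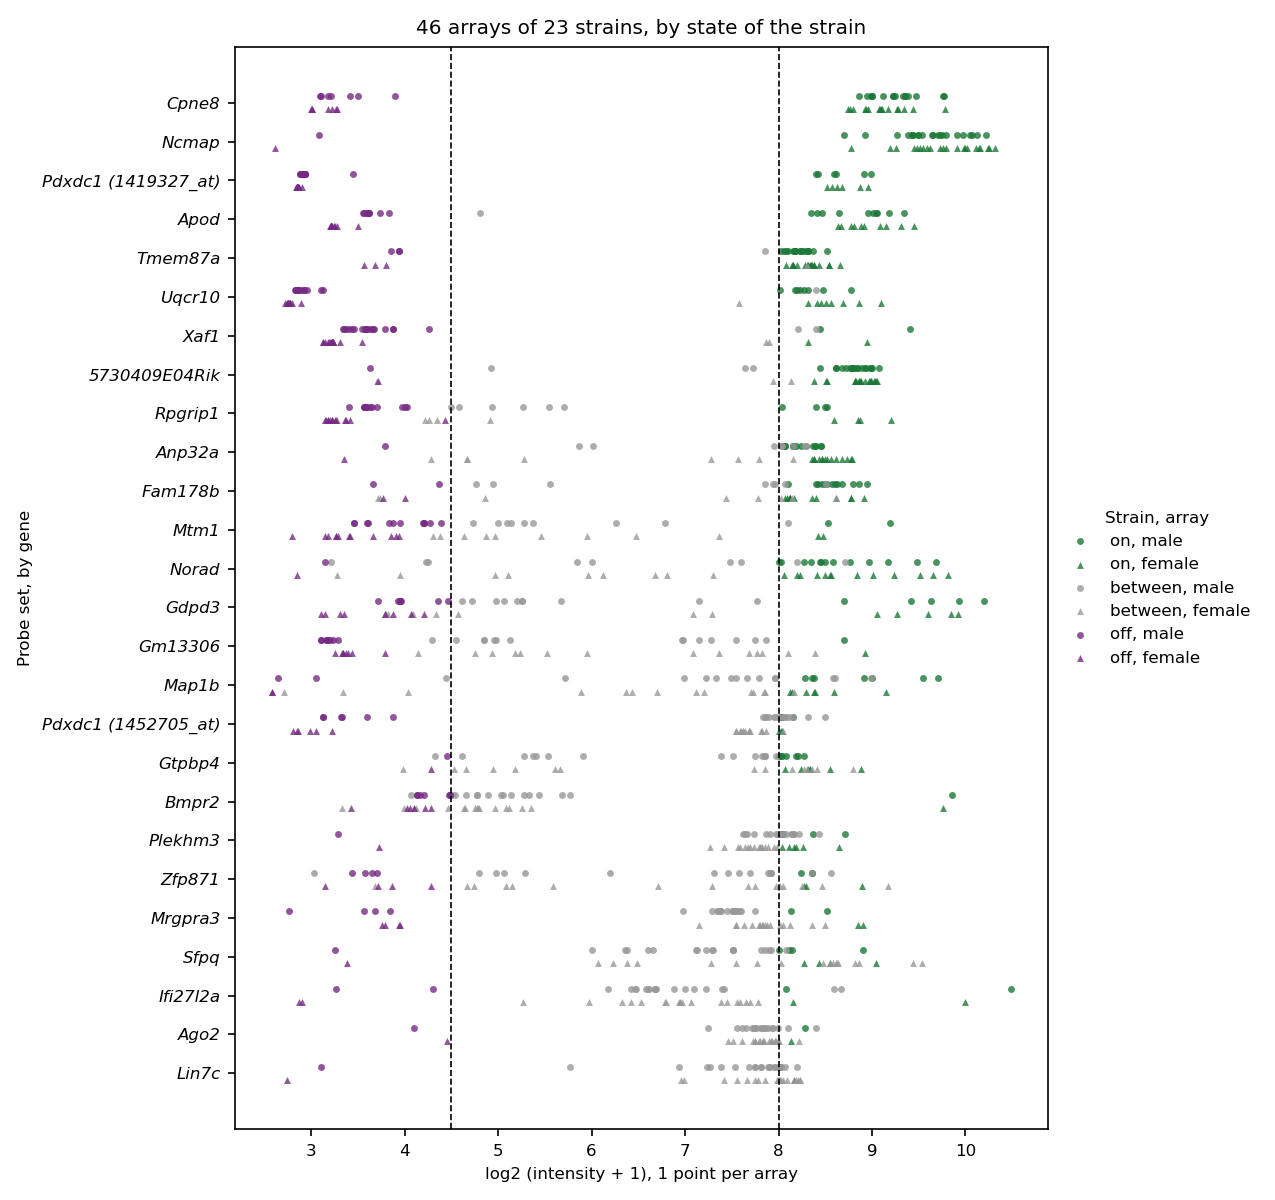
Level in each of the 46 arrays (x axis, log2 of intensity + 1; circles for male and triangles for female pools) of the 26 probe sets (rows, those with the fewest strains between at the top), coloured by whether the strain was on, between or off. Dashed lines mark the thresholds of 4.5 and 8, and the empty space between the classes in the top rows gives way to a spread of grey points further down.

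The other 20 probe sets were less clean, and 13 of the 26 had 10 or more strains between. For 21 of the 26 the ordered strain means still had a widest step of at least 2 log2 units.

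Both interferon-inducible members had more than 1 strain between, but Xaf1 still formed 2 separate classes. Ifi27l2a was on in NZO/HILtJ (10.49 male, 10 female) and C3H/HeJ (8.08 and 8.16), against off in RIIIS/J (4.30 and 2.87) and P/J (3.26 and 2.90). The other 19 strains filled the range from 5.27 to 8.67 (median 6.91 of 38 arrays), so Ifi27l2a was a graded gene with 2 low strains and 1 high strain at its ends. Xaf1, which encodes a binding partner of the apoptosis inhibitor XIAP, was on in DBA/2J (8.44 and 8.31) and BTBT T+tf/J (9.41 and 8.95), and 129S1/Sv1mJ (8.21 and 7.87) and P/J (8.40 and 7.90) missed the upper threshold in the female array alone. Against these 4 strains, the other 19 were off with 3.13 to 4.26 (median 3.35 of 38 arrays).

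Among genes of receptors and of neuronal or ciliary structure, Mrgpra3, the itch receptor of a class of unmyelinated sensory neurons, set 4 strains apart. It was on in NOD/LtJ (8.13 and 8.90) and RIIIS/J (8.52 and 8.85) and between in 17 strains with 6.98 to 8.5 (median 7.58 of 34 arrays), against 2.76 to 3.95 (median 3.77) in the 8 arrays of SJL/J, P/J, NZW/LacJ and NON/LtJ. Bmpr2, the type 2 receptor for bone morphogenetic proteins, was on in C57BR/cdJ alone, with 9.86 and 9.76, against 3.43 to 4.49 (median 4.15) in the 12 arrays of 6 off strains and 3.33 to 5.77 in the 16 strains between. Rpgrip1, a protein of the photoreceptor cilium, was on in c57BL/6J, NZW/LacJ, C58/J and C57BR/cdJ with 8.04 to 9.20 (median 8.55) in 8 arrays, against 3.15 to 4.43 (median 3.50) in the 26 arrays of 13 off strains and 3.22 to 5.71 in the 6 strains between. For these 3 genes the pools of each strain thus fell on the same side of the widest gap.

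Map1b, a microtubule-associated protein of axons, was graded. Lin7c, a scaffold protein of synapses and epithelial junctions, had its off strain far below all others. Map1b was on in 7 strains with 8.12 to 9.71 (median 8.39 of 14 arrays), against off in c57BL/6J (2.65 and 2.58) and 129S1/Sv1mJ (3.05 and 2.58). Its 14 strains between spread from 2.71 to 8.99, and the sexes disagreed widely in some, as in SJL/J with 7.66 (male) and 2.71 (female). Lin7c was on in BALB/CByJ alone (8.03 and 8.17), against off in C3H/HeJ alone (3.10 and 2.74), and the other 21 strains lay between 5.77 and 8.23. C3H/HeJ was thus the strain apart for Lin7c, and C58/J and AKR/J, which were between, had strain means of 8.11 and 8.08, against 8.10 in BALB/CByJ.

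Of the genes that act on RNA or chromatin, Ago2, Sfpq, Anp32a, Norad and Gtpbp4 each had a single off strain. Ago2, the Argonaute protein that cuts RNAs matched by small RNAs, was on in CBA/J (8.28 and 8.13), against off in NON/LtJ (4.10 and 4.45), with the other 21 strains between 7.25 and 8.40. Sfpq, a splicing factor, was on in BALB/CByJ, BTBT T+tf/J, BUB/BnJ and KK/HIJ with 8.01 to 9.04 (median 8.35 of 8 arrays), against off in RIIIS/J (3.25 and 3.38). SJL/J, at 6.38 and 6.07, was the next strain up, and the 18 strains between spread over 6.00 to 9.54. Anp32a, a phosphatase inhibitor and histone-binding protein, was on in 14 strains with 8.04 to 8.79 (median 8.39 of 28 arrays), against off in c57BL/6J (3.79 and 3.35), with 129S1/Sv1mJ (6.01 and 4.28) and SJL/J (5.86 and 4.67) next above it.

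Norad, a long noncoding RNA that binds Pumilio proteins, was on in 13 strains with 8.0 to 9.81 (median 8.56 of 26 arrays), against off in 129S1/Sv1mJ (3.15 and 2.85). Its 9 strains between ran from 3.21 to 8.71, and besides P/J the pools of c57BL/6J (7.48 and 3.95) and BTBT T+tf/J (3.21 and 6.81) lay far apart. The gap between the pools of P/J was the widest of all members and strains. The lower Norad array of each of these strains had the higher Gapdh 3' minus 5' signal of its pair: 0.60 in the male BTBT T+tf/J (female -0.37), 0.34 in the female P/J (male -0.65) and -0.09 in the female c57BL/6J array (male -0.48). Map1b was also lower in the male BTBT T+tf/J array, at 4.44 (female 7.12), and in the female P/J array, at 3.34 (male 7.79). In c57BL/6J both Map1b pools were low, at 2.65 (male) and 2.58 (female). Other strains went either way. SJL/J had Map1b at 7.66 (male) and 2.71 (female) with nearly equal Gapdh differences of -0.51 and -0.48. NZW/LacJ had Map1b at 6.99 (male) and 4.04 (female), with Gapdh at -0.47 and -0.59. The female SWR/J array, with Gapdh at -0.21 (male -0.56), had Norad at 8.23, although its Map1b was below that of the male array. Anp32a, Rpgrip1, Lin7c and Ago2 had their widest SD between pools in BTBT T+tf/J, at 2.38, 1.76, 1.42 and 0.41. Most other members had theirs in other strains. The part of RNA quality in these values was not tested. Zfp871, a zinc-finger gene, was on in BUB/BnJ, RIIIS/J and P/J with 8.24 to 8.89 (median 8.33 of 6 arrays). It lay at 3.15 to 4.28 (median 3.68) in the 8 arrays of SJL/J, AKR/J, C3H/HeJ and CBA/J, and its 16 strains between spread over 3.03 to 9.17. With 129S1/Sv1mJ, c57BL/6J, NOD/LtJ, MRL/MpJ, A/J and NON/LtJ, 10 strains averaged below the midpoint of the thresholds. The widest step between strain means, from 5.472 in c57BL/6J to 7.635 in NZW/LacJ, parted these 10 from the other 13. Gtpbp4, a GTPase of the nucleolus, was on in 7 strains with 8.01 to 8.88 (median 8.22 of 14 arrays), against off in NZO/HILtJ (4.45 and 4.28), with 15 strains between at 3.98 to 8.80. For Gtpbp4 NOD/LtJ, NZW/LacJ, KK/HIJ, AKR/J, BTBT T+tf/J, C57BR/cdJ and NON/LtJ also averaged below the midpoint of the thresholds, so that 8 strains were on the low side but 1 was off.

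Gdpd3, Mtm1 and Plekhm3 act on membranes and their lipids. Gdpd3, a lysophospholipase D, was on in NON/LtJ, 129S1/Sv1mJ, C57BR/cdJ, FVB/NJ and RIIIS/J with 8.70 to 10.20 (median 9.62 of 10 arrays). It lay at 3.11 to 4.46 (median 3.94 of 16 arrays) in 8 off strains. Of its 10 strains between, P/J (7.15 and 7.08) and KK/HIJ (7.77 and 7.29) lay highest, and the others averaged at most 5.12. Mtm1, the phosphoinositide phosphatase myotubularin, lies on the X chromosome and was on in A/J (8.53 and 8.42) and RIIIS/J (9.19 and 8.48), against 2.79 to 4.39 (median 3.64) in the 24 arrays of 12 off strains. MRL/MpJ (8.10 and 7.36) and BUB/BnJ (6.79 and 6.47) stood next to its on strains in a graded order. Plekhm3, a protein with a pleckstrin homology domain, was on in 6 strains with 8.03 to 8.71 (median 8.16 of 12 arrays), against off in RIIIS/J (3.29 and 3.73), and no other array lay under 7.27.

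The remaining members carry names without a role that can be given here. 5730409E04Rik was on in 19 strains with 8.38 to 9.08 (median 8.86 of 38 arrays), against off in NZW/LacJ (3.63 and 3.71), with RIIIS/J (4.92 and 3.70) close to NZW/LacJ. Fam178b was on in 13 strains with 8.07 to 8.95 (median 8.48 of 26 arrays), against off in BUB/BnJ (3.66 and 4.0) and MRL/MpJ (4.37 and 3.77), and NZW/LacJ, C3H/HeJ and A/J also averaged below the midpoint of the thresholds. Gm13306 was on in BUB/BnJ alone (8.70 and 8.93), against 3.11 to 3.79 (median 3.27) in the 16 arrays of 8 off strains, and its 14 strains between spread over 4.14 to 8.39. Gm13306 has a near neighbour in Ccl27a, a chemokine gene, 19 genes away in the RefSeq order, and how far the probes tell related copies apart is uncertain.

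To compare patterns, each strain was put on the low or the high side by whether its mean lay below or above the midpoint of the thresholds. The 26 probe sets gave 25 distinct partitions of the 23 strains. The single identical pair was Ncmap and Plekhm3, on chromosomes 4 and 1, each low in RIIIS/J alone. The single exactly opposite pair was that of both Pdxdc1 probe sets on chromosome 16. Any pair from different genes differed in a median of 11 strains, and 10 such pairs differed in 1 or 2 strains.

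All 10 near pairs came from 6 genes that were low in 1 or 2 strains: Ncmap, Plekhm3, Sfpq and 5730409E04Rik, which shared RIIIS/J as a low strain, and Lin7c and Ago2. With so few low strains, similar partitions are near by construction. RIIIS/J recurred in other members as well, being the highest strain of Map1b at 9.43, of Norad at 9.60, of Gdpd3 at 10.02, of Mtm1 at 8.83 and of Mrgpra3 at 8.69.

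By strain, the number of the 25 genes on the low side ran from 6 in DBA/2J to 15 in SJL/J, where 1 probe set stood for each gene. Of the 253 strain pairs, the lowest agreement was 8 genes on the same side, between c57BL/6J and RIIIS/J, the median 17 and the highest 24, between C58/J and SWR/J. C58/J and SWR/J differed in Rpgrip1, at 8.69 in C58/J and 5.23 in SWR/J. CBA/J and C3H/HeJ, strains that share ancestors, stood on the same side in 23 genes and differed in Lin7c (8.06 in CBA/J and 2.92 in C3H/HeJ) and Fam178b (8.23 in CBA/J and 4.33 in C3H/HeJ). FVB/NJ and SWR/J also stood on the same side in 23.

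The strains c57BL/6J, C57BR/cdJ and C58/J descend from a shared stock, and all were on for Rpgrip1 at strain means of 8.32, 8.85 and 8.69. Over the 25 genes, against the median of 17 over all pairs, the number on the same side was 16 for c57BL/6J with C57BR/cdJ, 18 for c57BL/6J with C58/J and 19 for C58/J with C57BR/cdJ. Tmem87a separated C58/J, at 8.23, from c57BL/6J at 3.81 and C57BR/cdJ at 3.87. Bmpr2 separated C57BR/cdJ, at 9.81, from C58/J at 5.05 and c57BL/6J at 4.26.

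Loci were compared by the order of genes in the RefSeq table of assembly GRCm38.p6, in which all 25 genes were found. Of 18 pairs of different members on the same chromosome, 1 pair lay within 20 genes: Sfpq and 5730409E04Rik on chromosome 4, 11 genes apart. Both were low in RIIIS/J, at strain means of 3.32 for Sfpq and 4.31 for 5730409E04Rik. In NZW/LacJ 5730409E04Rik was at 3.67 and Sfpq at 7.81, and in SJL/J 5730409E04Rik was at 8.64 and Sfpq at 6.23, so the pair shared RIIIS/J and no other low strain.

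Neighbours of the members seldom followed them. In 534 comparisons of a member with a tested probe set of another gene within 20 genes, all arrays of the off strains lay below all arrays of the on strains in 16 (3.00%), against 1.87% over all probe sets of other genes and all partitions. In 7 all off arrays lay above all on arrays, against 1.71% over all. Of the 16, 7 of 11 belonged to Lin7c, 5 of 20 to Sfpq, 2 of 36 to Norad, 1 of 16 to Map1b and 1 of 1 to Gm13306. For Lin7c, with 1 on and 1 off strain, 18.8% of all other probe sets met the same condition, and for Sfpq 2.82%. The 5 at Sfpq were both probe sets of AU040320, Zmym1, Zmym4 and the probe set of 5730409E04Rik, and of these differences only that of 5730409E04Rik, 4.64, reached 1 log2 unit. At Gm13306 the neighbour was Ccl27a 1434962_x_at, at 8.39 in BUB/BnJ and 7.40 in the off strains (adjusted p = 8.24e-13 by limma), where 1.44% of other probe sets met the condition. At Lin7c, Lgr4, a receptor gene 2 genes away, ran the other way, at 8.13 in BALB/CByJ and 9.21 in C3H/HeJ, its highest strain (adjusted p = 6.65e-05 by limma), as 13.9% of other probe sets did.

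At Rpgrip1 on chromosome 14 a neighbour ran the other way. Supt16, 2 genes away, encodes a subunit of the histone chaperone FACT. Probe set 1449578_at averaged 4.37 in the 4 on strains of Rpgrip1 and 6.53 in its off strains, a difference of -2.16, and its strain means in c57BL/6J (4.12), NZW/LacJ (4.30), C58/J (4.38) and C57BR/cdJ (4.67) were the lowest of all 23, the next being BTBT T+tf/J at 5.58 (limma F test for strain, adjusted p = 3.08e-05). Probe set 1419741_at averaged 6.69 in the on and 7.81 in the off strains, a difference of -1.12, with the same 4 strains lowest (adjusted p = 1.79e-06 by limma). For the Rpgrip1 partition, 2 of 22129 probe sets of other genes (0.00904%) had all off arrays above all on arrays, and these are the 2 of Supt16.

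At Bmpr2 on chromosome 1, Nbeal1, 7 genes away, averaged 3.57 in C57BR/cdJ, the on strain of Bmpr2, and 5.50 in its off strains (difference -1.93; limma F test for strain, adjusted p = 0.0135). C57BR/cdJ was also the lowest of the 23 strains for Nbeal1, followed by AKR/J at 3.81, but 1.53% of all other probe sets had off arrays above on arrays in this partition. At Norad on chromosome 2, Rbm39, a splicing factor gene 8 genes away, had 129S1/Sv1mJ as its lowest strain in 2 of its probe sets, as Norad did. Probe set 1456386_at averaged 5.48 in the on strains of Norad and 3.68 in 129S1/Sv1mJ (adjusted p = 3.57e-05 by limma), and 1438397_a_at averaged 7.37 in the on strains and 6.11 in 129S1/Sv1mJ (adjusted p = 0.0177 by limma), where 1.9% of other probe sets met the condition.

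The array holds further probe sets for 18 of the 25 genes, 38 in all that were no members, and 32 of them on 16 genes were tested. They give readings of the same genes that the rule did not use. Ncmap, Ifi27l2a, Gm13306, 5730409E04Rik, Mrgpra3, Gdpd3 and Tmem87a have no other probe set with 1 symbol, and those of Rpgrip1 and Fam178b stayed near the floor in all strains and were not tested. By limma's F test 12 of the 32 (37.5%) were called for strain at an adjusted p under 0.05, against 23.6% of all probe sets tested. In 11 of the 32 (34.4%) all off arrays of the member lay below all its on arrays, against 1.87% over all other probe sets and partitions, and 6 of these 11 belong to Lin7c and Ago2, for which 18.8% and 13.7% of all other probe sets did so. In 2 of the 32 all off arrays lay above all on arrays. For Pdxdc1 these counts take 1419327_at, its member with the wider difference.

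For 7 genes another tested probe set with a mean above 8 differed by less than 1 log2 unit between the member's on and off strains. Apod 1416371_at averaged 13.42 in the on strains and 13.38 in the off strains of the chosen Apod probe set. Norad 1428286_at averaged 12.79 in on and 12.71 in off strains, and Map1b 1450397_at 12.52 in on and 12.66 in off strains. Bmpr2 1434310_at averaged 11.08 in on and 10.90 in off strains, and Uqcr10 1424364_a_at 10.09 in on and 9.93 in off strains. Zfp871 1433784_at averaged 9.42 in on and 9.37 in off strains, and the Sfpq probe sets 1423795_at, 1438458_a_at and 1438459_x_at differed by 0.04, 0.06 and 0.18. None of these 9 was called for strain by limma (adjusted p 0.0505 to 0.937), so for these 7 genes the on-off pattern of the chosen probe set was not shared by all probe sets of the gene. A p that misses the threshold does not show equal levels. The other Map1b probe set, 1421851_at, averaged 10.84 in on and 9.82 in off strains, a difference of 1.02 in the direction of the chosen one, with overlapping arrays (adjusted p = 0.106 by limma). In 15 of the 16 genes at least 1 other tested probe set stayed above 4.5 in each of the 46 arrays.

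**Figure D3:**
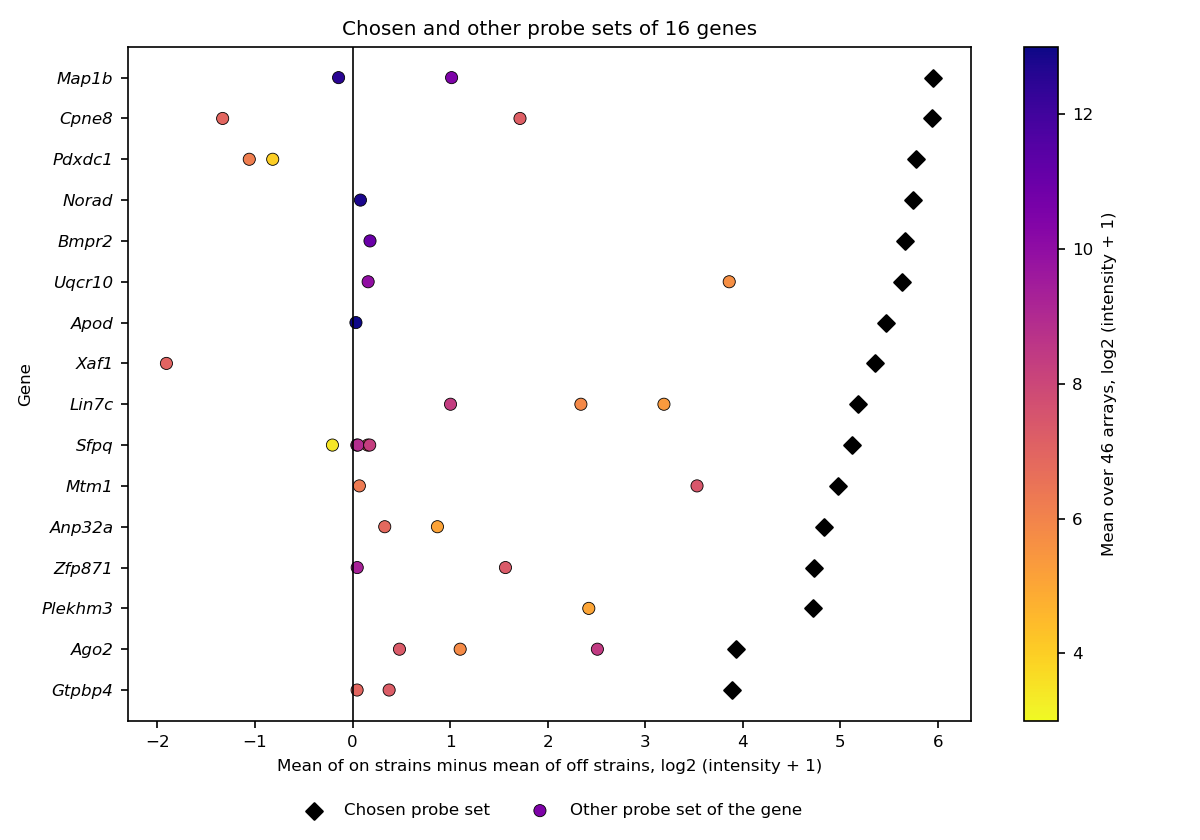
Mean of the on strains minus mean of the off strains (x axis, log2 of intensity + 1) for the chosen probe set (black diamonds) and the 32 other tested probe sets (circles, coloured by their mean over 46 arrays) of 16 genes (rows). The diamonds lie between 3.89 and 5.95, while 18 circles lie within 1 unit of 0 and 3 lie at or below -1.

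Other genes had a second probe set that followed the first. Mtm1 1434278_at averaged 10.06 in A/J and RIIIS/J, the on strains, and 6.53 in the off strains, a difference of 3.53 (limma F test for strain, adjusted p = 1.13e-10). Its arrays of on strains lay between 9.78 and 10.55, against 5.26 to 7.24 in the off strains, and 0.0768% of other probe sets separated in this partition. MRL/MpJ (9.78 and 9.31) and BUB/BnJ (8.87 and 8.78) again came next. Mtm1 1416934_at, however, averaged 6.37 in the on and 6.30 in the off strains (adjusted p = 0.698 by limma).

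Uqcr10 1434341_x_at averaged 8.04 in the on strains and 4.18 in the off strains, a difference of 3.86 (adjusted p = 1.19e-15 by limma), and its arrays lay between 6.84 and 8.89 in the on strains, against 3.90 to 4.62 in the off strains. No probe set of another gene separated these strains with the off strains low (0% of 22127). The suffix marks probes that may match other transcripts too. Plekhm3 1438108_at averaged 5.14 in on strains against 3.05 and 2.39 in the RIIIS/J arrays, a difference of 2.42 (adjusted p = 4.26e-05 by limma), every other array of the 46 lay at 4.25 or higher, and 1.88% of other probe sets separated in this partition. Zfp871 1453140_at averaged 7.89 in on and 6.32 in off strains (difference 1.57, adjusted p = 0.00116 by limma), although some arrays of the classes overlapped. Anp32a 1421918_at averaged 5.215 in on strains and 4.345 in c57BL/6J without overlap (adjusted p = 0.0514 by limma), where 1.22% of other probe sets separated. Anp32a 1434555_at differed by 0.330 with overlapping arrays (adjusted p = 0.156 by limma). Gtpbp4 1423143_at and 1450873_at differed by 0.047 and 0.375, both with overlapping arrays (adjusted p = 0.248 and 0.3 by limma).

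For Lin7c all 3 other probe sets had their lowest strain mean in C3H/HeJ. Probe set 1449262_s_at was at 6.05 in BALB/CByJ and 2.86 in C3H/HeJ, 1418898_at at 6.17 in BALB/CByJ and 3.83 in C3H/HeJ, and 1450937_at at 8.57 in BALB/CByJ and 7.57 in C3H/HeJ, with adjusted p = 0.0218, 0.00111 and 0.0765 by limma's F test for strain. Ago2 1455389_s_at was at 8.84 in CBA/J and 6.33 in NON/LtJ, its lowest strain (adjusted p = 4.1e-05 by limma). Ago2 1455294_at was at 6.07 in CBA/J and 4.96 in NON/LtJ, and 1426366_at at 7.49 in CBA/J and 7.0 in NON/LtJ, and neither was called for strain (adjusted p = 0.204 and 0.714 by limma).

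In 3 genes another probe set ran against a chosen one. Cpne8 1431146_a_at averaged 6.50 in the 16 on strains and 7.83 in the 7 off strains, a difference of -1.33 (limma F test for strain, adjusted p = 1.48e-06). Its arrays of on strains lay between 5.57 and 7.10, against 7.36 to 8.09 in the off strains, without overlap. Cpne8 1430521_s_at ran with the chosen probe set, at 7.69 in on and 5.97 in off strains, a difference of 1.72 (adjusted p = 9.18e-10 by limma). No probe set of any other gene separated the on from the off strains of Cpne8 in either direction (0% of 22127).

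Xaf1 1443698_at averaged 5.46 in DBA/2J and BTBT T+tf/J, the on strains, and 7.37 in the off strains, a difference of -1.91 (adjusted p = 1.97e-08 by limma). The arrays of 129S1/Sv1mJ (5.16 and 4.61) and P/J (5.82 and 5.16) lay with those of the on strains, and no array of the 19 off strains lay below 6.752. Thus the same 4 strains were high in one Xaf1 probe set and low in the other. In this direction 0.00904% of other probe sets separated the classes. Pdxdc1 had, besides its opposed members, 1436372_a_at at 5.42 in the strains where 1419327_at was on and 6.48 where it was off (adjusted p = 0.00383 by limma) and 1428200_a_at at 3.40 where it was on and 4.22 where it was off (adjusted p = 0.00981 by limma). Both ran with the other member, 1452705_at. In its on strains 1436372_a_at averaged 6.52, against 5.42 in its off strains without overlap, as 0.0859% of probe sets of other genes did, and 1428200_a_at averaged 4.23 in the on and 3.40 in the off strains.

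**Figure D4:**
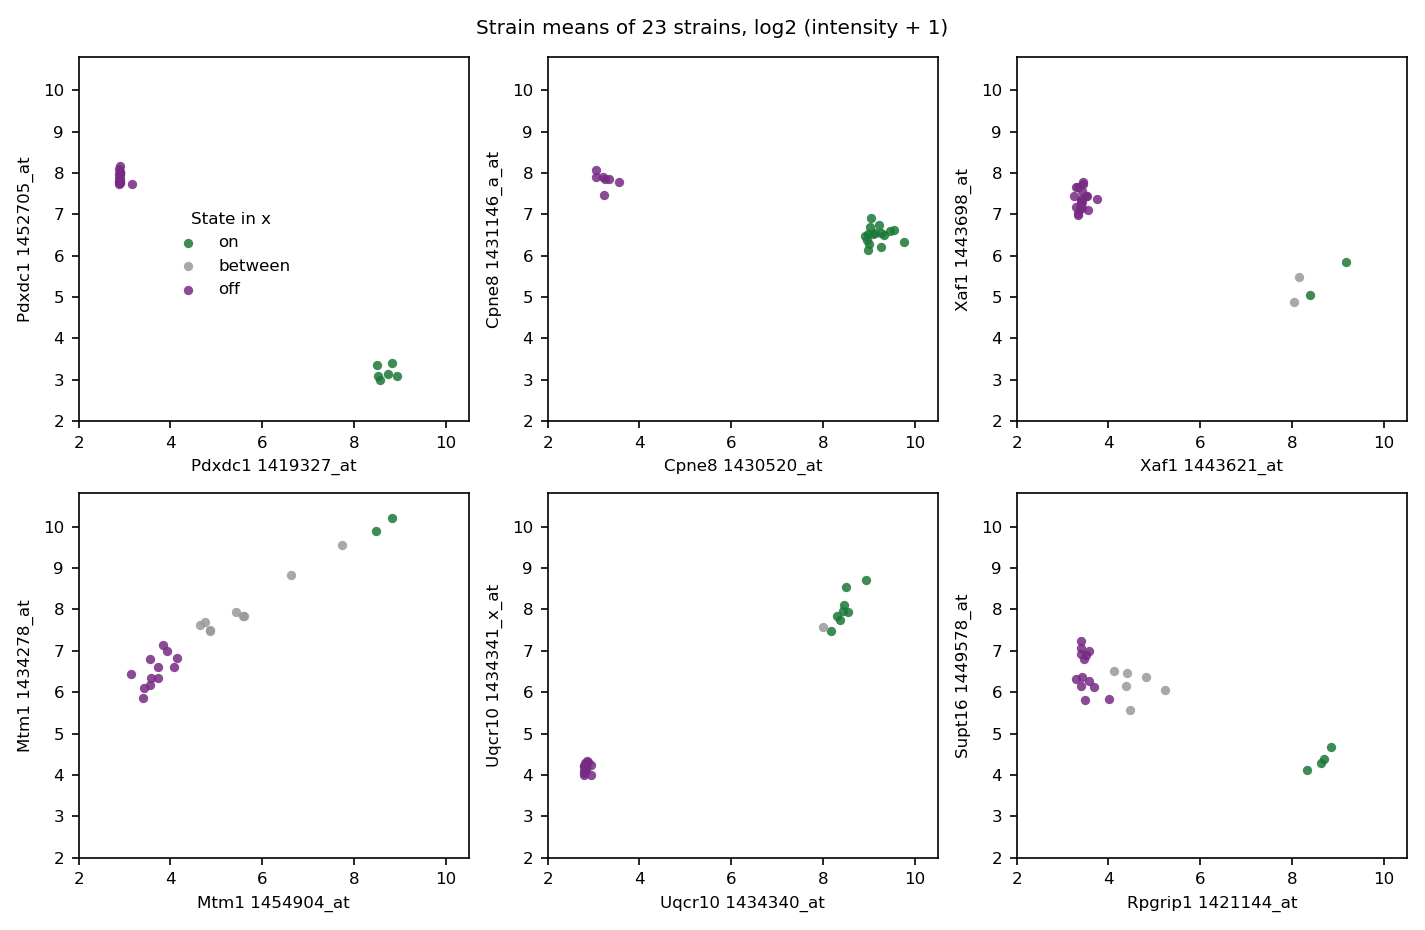
Strain means of 23 strains in 6 pairs of probe sets (both axes log2 of intensity + 1), coloured by the state of the strain in the probe set on the x axis (on, between or off). Pdxdc1, Cpne8 and Xaf1 show strains high in one probe set and low in the other, Mtm1 and Uqcr10 show probe sets that run together, and the last panel sets Supt16 against its neighbour Rpgrip1, whose 4 on strains have the 4 lowest Supt16 means.

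Gene lists, which were made with earlier results of these data known, held 0 to 2 members each, so nothing follows from their shares. Of 25 genes, 2 stood among 40 measured interferon-inducible genes (5%, Ifi27l2a and Xaf1) and 1 among 18 genes of Schwann and satellite glia (5.56%, Ncmap). Another 1 stood among 52 sensory receptors and channels (1.92%, Mrgpra3) and 1 among 109 zinc-finger genes (0.917%, Zfp871). The list of known strain variants held 2 of 36 (5.56%), Cpne8 and Gm13306. None was on the lists for antigen presentation, detoxification, neuron subtypes, blood, muscle, liver, fat or skin. All genes with an eligible probe set numbered 17903, of which 25 are 0.14%.

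The glial list did not share the Ncmap pattern. Of 17 other glial genes tested, 8 were called for strain by limma's F test, 47.1% against 24.8% of all genes. The difference between the 22 on strains and RIIIS/J had a median of 0.12 over the 17 genes and ranged from -0.44 for S100b to 0.46 for Cnp. The myelin gene Pmp22 averaged 13.69 in the on strains and 13.57 in RIIIS/J, and Mbp 13.85 in the on strains and 13.81 in RIIIS/J. None of the 17 separated RIIIS/J from all other strains.

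Of 25 other interferon-inducible genes tested, 16 (64%) were called for strain by limma, against 24.8% of all genes. Between the on and off strains of Ifi27l2a they differed by a median of 0.25, against -0.01 over all probe sets, from -0.50 for Trim12c to 0.91 for Ifit1, and none separated the strains. In the Xaf1 partition the median was -0.04. Of 43 other sensory receptor and channel genes, 32 (74.4%) were called for strain by limma, and none separated the strains of Mrgpra3: the median difference was 0.01, with Scn2b at -0.92 and Kcns1 at 0.79 as extremes. The zinc-finger list had 28 of 90 other genes (31.1%) called, near the share of all genes, with a median difference of -0.02 in the Zfp871 partition. Of 19 other genes on the list of known strain variants, 17 (89.5%) were called, but that list was made with such results known. In the Gm13306 partition 2 of them separated the strains. Gpnmb averaged 4.55 in BUB/BnJ and 2.65 in the off strains (adjusted p = 0.000281 by limma), and Gstt1 averaged 5.14 in BUB/BnJ and 6.97 in the off strains (adjusted p = 2.74e-05 by limma). Of all other probe sets 1.44% had the off strains lower and 0.768% higher without overlap in this partition. None of the 19 separated the strains of Cpne8.

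Sex was not part of the rule. Of the 26 probe sets, 13 were called by limma with strain as a block, against 55.6% of all probe sets tested. Of the members 10 were higher in males, against 22.9% of all, and 3 higher in females, against 32.7%. Of all calls 41.2% were thus higher in males, and 49.9% after quantile normalization. Without strain as a block, limma called 0 of the 26, and 0 at an unadjusted p under 0.05. Gdpd3 averaged 5.91 in males and 5.36 in females (difference 0.55, SE 0.10, adjusted p = 2.47e-05 by limma). Xaf1 averaged 4.48 in males and 4.10 in females (0.38, SE 0.05, adjusted p = 7.45e-07 by limma), and Mtm1 5.07 in males and 4.63 in females (0.44, SE 0.09, adjusted p = 0.000223 by limma). Mrgpra3 was lower in males, with 6.83 in males and 7.25 in females (-0.42, SE 0.06, adjusted p = 4.14e-06 by limma), as were Sfpq (-0.66, SE 0.17, adjusted p = 0.00206) and Gm13306 (-0.30, SE 0.06, adjusted p = 0.000175). The lowest intensity of each array was 1.629 to 1.655 in males and 1.726 to 1.744 in females, so a difference between the sexes and a difference in how their arrays were processed cannot be told apart.

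In the arrays left out, the sexes of a label disagreed more often. The male and the female array of SM/J stood on the same side of the midpoint in 18 of the 25 genes and those of PL/J in 19, against 21 to 25 in the 23 other strains. Genes with otherwise clean classes had middling values there. Cpne8 was at 9.47 (male) and 6.09 (female) in SM/J, and at 7.32 (male) and 3.01 (female) in PL/J. Apod was at 7.5 (male) and 5.04 (female) in SM/J and at 6.35 (male) and 3.25 (female) in PL/J. Uqcr10 was at 8.18 (male) and 4.02 (female) in SM/J and at 5.21 (male) and 2.73 (female) in PL/J. In the 23 strains used, no array of Cpne8 lay between 3.90 and 8.74. Ncmap, Tmem87a and both Pdxdc1 probe sets, in contrast, were on the same side in both sexes of SM/J and PL/J.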

How the data were processed

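The study measured total RNA of pooled dorsal root ganglia on 50 expression arrays. The authors deposited a single linear intensity for every probe set on every array. The submitters' processing notes name GCRMA and R 2.6.2; further settings are not given in the sources used here. Values ran from 1.63 to 36604, array medians from 9.43 to 10.53, and 18703 to 19327 probe sets per array lay above a log2 intensity of 4. The number of arrays, 2 per strain, limits the precision.

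Levels were analysed as log2 (intensity + 1). The 64 control probe sets were left out. Of 45037 others, 34945 had 1 gene symbol in the platform annotation, 31076 of them without an _x_at or _s_at suffix. A probe set was tested when it was above 4 in at least 2 of 46 arrays, which kept 22130. Strain was tested with limma 3.58.1 in R 4.3.3 (moderated F test, sex as an additive term) and sex with strain as a block, with Benjamini-Hochberg adjustment over all probe sets tested and a threshold of 0.05. The pairing of male and female pools comes from the strain label. The tests and the rule were tested on simulated data. The members and the gene lists were chosen with earlier results of these data known. Tables were handled in Python 3.11.15 with pandas 2.3.3. Gene order came from RefSeq (GRCm38.p6); the files name no build, so coordinates are not given. The files were linear where the plan allowed for log2 values, and the transformation was the one planned. Named were the members with the 15 widest differences, the 5 with the most and fewest off strains, those on a list, next to a threshold or with a concordant or discordant other probe set. That left out Tmem87a and Fam178b, which are described so that every member is accounted for. Supt16, Nbeal1, Rbm39 and Epb41l1, list genes and single strains were named after their values were seen. Alternatives varied thresholds, pseudocount, normalization, filters, block, window and arrays.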

Additional observations from a re-analysis of the deposited data

How the results depend on the processing

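The choice of members depended on its thresholds. With 4 and 8.5 it gave 16 probe sets of 16 genes, with 5 and 7.5 it gave 71 of 69 genes, with log2 (value + 16) it gave 3 of 3 genes, and with _x_at and _s_at probe sets 41. Leaving out each array in turn, so that the other array decided the state, gave 26 to 52 probe sets and 25 to 51 genes, and 52 came without the female BTBT T+tf/J array. Since an omission only loosens the rule, no member could be lost by it. Quantile normalization gave 27 and all 25 strains gave 28. The differences between on and off strains, whose sign the choice of strains fixes, shrank to 3.17 to 5.24 with log2 (value + 16).

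For strain, 5232 probe sets were called, 2737 without the sex term that serves as replicate block, and 4594 to 8183 leaving out 1 array each (8183 without the male P/J array). Other probe sets of the members called for strain numbered 12 to 16 under the same omissions. For sex, 12300 were called, 22834 with no filter and 11948 to 12650 leaving out 1 array, and of the members 13, or 11 to 14 leaving out 1 array and 0 of 26 by limma with no replicate block of strains (0 also at an unadjusted p under 0.05), where 10590 of all probe sets were called.

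Where 2 members shared a partition when low strains had to be identical, 23 did when no strain could be off in one and on in the other, and 1 pair (Sfpq and 5730409E04Rik) then shared a locus too, against 0. The count of other probe sets with off below on strains was 11 by arrays, 17 by strain means, 7 without _x_at and _s_at probe sets and 5 without Ago2 and Lin7c, an alternative added after seeing the data, as was leaving out BTBT T+tf/J and P/J (26 probe sets). The causes were not tested. Low intensities near the floor limit how far an off level can be read.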

Other observations

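Among the probe sets just outside the thresholds or added by looser ones were genes of sensory neurons and of other tissues. With thresholds of 5 and 7.5 the rule added, among others, Ntrk3, a neurotrophin receptor of proprioceptive neurons, Nts, the neuropeptide neurotensin, H2-Eb1, a gene of antigen presentation, and Alb and Fabp1, genes of liver. The highest Alb array lay at 10.12 and its median array at 2.70. To enter, Alb needed both arrays of at least 1 strain above 7.5, so more than a single array was high. With _x_at and _s_at probe sets admitted, the 15 added probe sets included those of the histocompatibility genes H2-D1 and H2-K1, of Erdr1, Gsn, Phgdh, Rpn1 and Ttr, and a further one of Uqcr10. With all 25 strains, Chrna6, which the series title names, and Stk25 entered as well, through arrays of SM/J or PL/J. These genes were named after their values were seen, and none is reported with a test.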
